A study of Homo sapiens with 5 samples.

Results

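Chromosome 9 of HL60, an established human promyelocytic leukaemia cell line, was described here in all its 500 kb bins, which were 283 of the 6083 bins on the autosomes and chromosome X (hg19). A bin was usable where its contacts with other chromosomes were at least 0.2 times those of the median bin in every matrix. This held for 219 chromosome 9 bins, 78 on the short arm 9p and 141 on the long arm 9q, while 64 bins were not usable and 35 of those had no contact with another chromosome. The assay was Hi-C with ligation in solution: crosslinked chromatin is cut by the enzyme HindIII, the ends are ligated, and each ligated pair of fragments is counted as a contact. Cells of 1 group received ATRA (all-trans retinoic acid), known to turn HL60 into cells resembling granulocytes, another received TPA, a phorbol ester known to give cells resembling macrophages, and the last was untreated. The labels give no dose or time. The 5 libraries form 3 matrices, with 1 ATRA library, 2 TPA libraries pooled and 2 untreated libraries pooled, so the spread between libraries cannot be computed and no test was made. All intervals are 95% intervals for counting error only, and a difference between matrices cannot be told apart from a difference between libraries. Chromosome 9 took part in 630066 contacts in ATRA cells, 666391 in TPA cells and 675270 in untreated cells, which was 6.54%, 6.39% and 6.35% of all contacts.

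HL60 is known for an abnormal karyotype, and a Hi-C matrix records such changes along with folding. Fewer copies of a segment give fewer contacts in its bins, a join between chromosomes gives a block of contacts between them that fades away from the breakpoint, and a deletion brings its flanks together. Band 9p21 is often lost in leukaemia. It carries CDKN2A and CDKN2B, which encode inhibitors of cyclin-dependent kinases, MTAP, an enzyme of methionine salvage, and the type I interferon genes. In the RefSeq gene order (GRCh38.p14), the row from MLLT3, a gene of the super elongation complex, to ELAVL2, an RNA-binding protein of neurons, holds 25 protein-coding genes, of which 16 are interferon genes. The same row holds 2 miRNA genes with 3 mature products in the RefSeq table. MIR491 lies inside FOCAD, and MIR31 lies between IFNE and MTAP. They are shown because they are short products of a band of 9p, the arm whose coverage is examined below. They are in lower case with the seed (bases 2 to 8) in capitals, and no 2 of them share a seed.
hsa-miR-31-5p: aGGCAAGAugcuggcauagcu
hsa-miR-491-5p: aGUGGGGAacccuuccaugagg
hsa-miR-491-3p: cUUAUGCAagauucccuucuac
These genes are given as background to the band. They were not placed on single bins, because the gene table used here is on GRCh38.p14 and the matrices are on hg19.

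Chromosome 9 had a long stretch of low coverage on 9p and a short one on 9q, in all 3 matrices. Coverage is the number of contacts of a bin with other chromosomes over that of the median bin, which was 2302 contacts in ATRA cells, 2288 in TPA cells and 2220 in untreated cells. Runs of 3 or more bins under 0.75 times the median in every matrix covered 112 chromosome 9 bins, or 39.6%, against 20.5% of all bins. They were the 9p low segment at 11.5 to 32.5 Mb, with 42 bins, the pericentromere at 38.5 to 71 Mb, with 65 bins of which 2 were usable, and the 9q low segment at 104.5 to 107.0 Mb, with 5 bins. Runs of 3 or more bins under 0.4 times the median in every matrix covered 63 bins (22.3%, against 7.46% of all bins). These were the pericentromeric bins at 39.0 to 68.0 and 68.5 to 71 Mb. The 9p low segment held no such run, but some of its bins, such as those at 24.5 and 25.0 Mb, were under 0.4 in every matrix. The 2 low segments outside the pericentromere were reduced but not empty.

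The 9p low segment had a median coverage of 0.498 in ATRA cells, 0.476 in TPA cells and 0.465 in untreated cells. Distal 9p, from the chromosome's start to 11.5 Mb, had 1.14, 1.11 and 1.11, and proximal 9p at 32.5 to 38.5 Mb had 1.22, 1.34 and 1.37. The low bins are all under 0.75 by the rule that set the segment, so a gap to its neighbours is partly fixed in advance. The highest of the 42 low bins reached 0.724 in ATRA cells, 0.655 in TPA cells and 0.709 in untreated cells. The lowest of the 12 proximal bins was at 0.906, 0.979 and 1.02. Toward the telomere the lowest distal bins stood at 0.688, 0.777 and 0.715, which in ATRA cells is below the highest low bin. Whether low coverage comes from fewer copies or from sequence that is cut or mapped less often was not tested, and coverage alone cannot tell these apart.

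**Figure D1:**
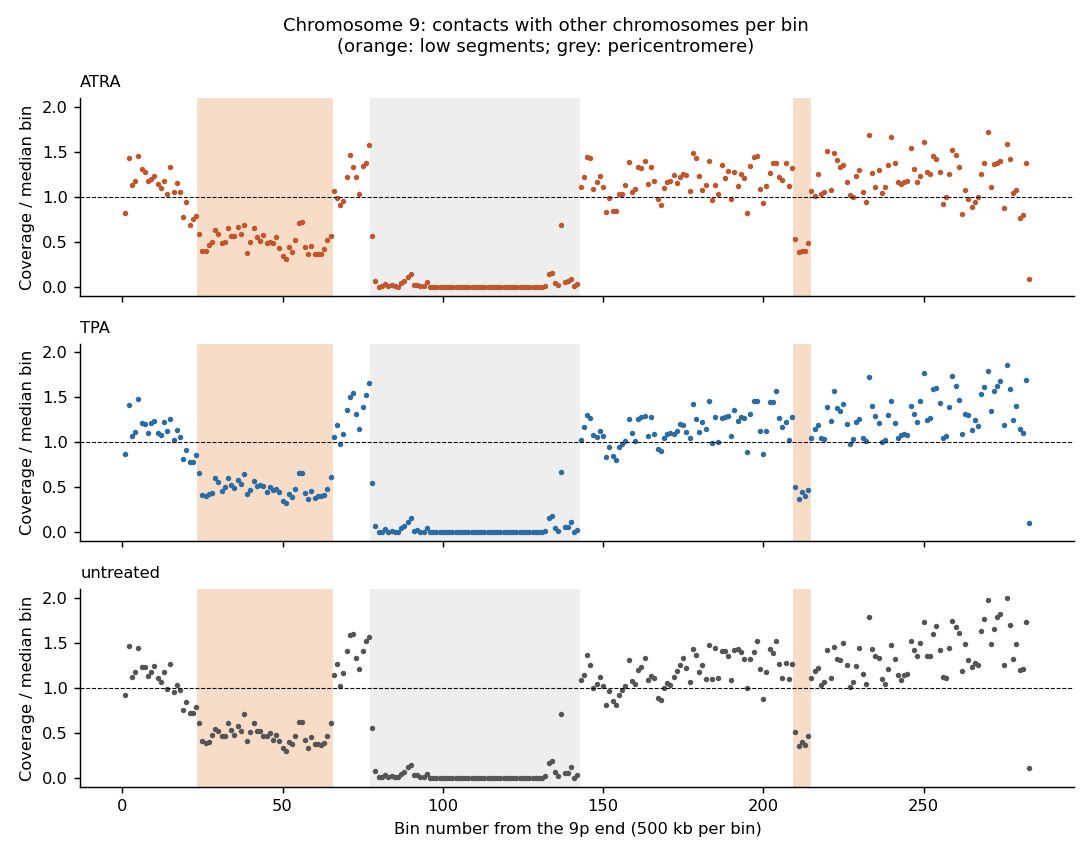
Contacts of each chromosome 9 bin with other chromosomes over the median bin, by bin number from the 9p end, in ATRA (top), TPA and untreated cells (bottom); each point is a bin, orange marks the 2 low segments and grey the pericentromere. The 42 bins of the 9p low segment lie near 0.498, 0.476 and 0.465 at the median, below the bins on both sides.

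The edges of the 2 low segments differed in shape. At 32.5 Mb coverage changed within 1 bin, with 0.565 in ATRA cells, 0.615 in TPA cells and 0.611 in untreated cells in the last low bin, and 1.07, 1.06 and 1.14 in the next. The median of the 3 bins inside this edge was 0.532, 0.455 and 0.411 times that of the 3 bins outside in the ATRA, TPA and untreated matrices. At 11.5 Mb the fall was more gradual. The 3 bins outside it had already come down to medians of 0.760, 0.778 and 0.724, and the 3 bins inside had 0.404, 0.418 and 0.407. The edges of the 9q low segment were sharp on both sides, with 3 bins inside at 0.305, 0.361 and 0.315 times those outside at 104.5 Mb, and 0.381, 0.387 and 0.335 times those outside at 107.0 Mb.

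A scan of medians in 10 bins on each side found 4 steps of 0.4 or more (log2) among 200 boundaries of chromosome 9, or 2%, against 1.62% of all boundaries, so the number of steps was close to the background. They fell near the edges of the 2 low segments. The step at 11 Mb was -1.06 in ATRA cells, -1.12 in TPA cells and -1.03 in untreated cells, and that at 33.5 Mb was 1.54, 1.64 and 1.74. On 9q the steps were -0.80, -0.93 and -0.84 at 102.5 Mb and 0.81, 0.84 and 0.82 at 109.5 Mb. Windows of 10 bins place a step only to within several bins, and windows of 6 bins put them at 11, 32.5, 103.5 and 108.0 Mb.

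Within the 9p low segment, the 20 to 26 Mb window had about the same median coverage as the rest, and it held the lowest bin. Its 12 bins had a median coverage of 0.491 in ATRA cells, 0.477 in TPA cells and 0.461 in untreated cells, against 0.498, 0.476 and 0.467 in the other 30 bins of the segment. The bin at 20.0 Mb was the highest of the window, with 0.649, 0.570 and 0.609. The bins at 20.5, 21, 21.5, 22, 22.5, 23 and 23.5 Mb lay between 0.483 and 0.576 in ATRA cells, between 0.448 and 0.530 in TPA cells and between 0.420 and 0.516 in untreated cells. The lowest values of the window followed. The bin at 24 Mb had 0.437, 0.443 and 0.406, the bin at 24.5 Mb had 0.345, 0.351 and 0.330, the bin at 25.0 Mb had 0.310, 0.326 and 0.303, and the bin at 25.5 Mb had 0.439, 0.431 and 0.402. The 25.0 Mb bin was the lowest of the whole segment in every matrix, and still held 713, 746 and 672 contacts with other chromosomes. No bin of the window was empty, and a loss shorter than a bin would not be seen as an empty bin here.

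Contacts across the low segments were below the level set by distance, not above it. A deletion without a join to another chromosome would place the 2 flanks side by side and raise the contacts between them. Between the 5 bins before the 9p low segment (9.0 to 11.5 Mb) and the 5 after it (32.5 to 35.0 Mb) there were 17 contacts in ATRA cells, 38 in TPA cells and 30 in untreated cells. After balancing, this was 0.387 (0.226 to 0.620), 0.643 (0.455 to 0.883) and 0.559 (0.377 to 0.798) times the mean at the same distance on all chromosomes. Against the distance with the segment removed, it was 0.0576, 0.0940 and 0.0662 times the mean. Across the 9q low segment, the bins at 102.0 to 104.5 Mb and at 107.0 to 109.5 Mb shared 91, 146 and 150 contacts, or 0.491 (0.396 to 0.603), 0.599 (0.506 to 0.704) and 0.681 (0.576 to 0.799) times the mean, and 0.195, 0.261 and 0.225 times with the segment removed. In the summed matrix the 2 ratios were 0.544 and 0.596. Windows of the same shape over all chromosomes had medians of 0.983 and 0.959, and 9.61% and 9.05% of them were at or below the chromosome 9 values. None of the 2 reached 2 times the mean, which 1.82% of windows as far apart as the 9p flanks and 0.956% of windows as far apart as the 9q flanks did. Flank bins of both segments are also peaks of joins with chromosome 14, given below, and the edge at 11.5 Mb is gradual. A deletion in only some copies would raise the ratio by less than a deletion in all, so the limit of 2 times cannot decide this. Whether either segment was deleted was not tested.

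The pericentromere gave a comparison across a gap with almost no contacts. Its flanks at 36.0 to 38.5 Mb and 71 to 73.5 Mb shared 101, 72 and 101 contacts, or 1.39 (1.13 to 1.69), 0.846 (0.662 to 1.07) and 1.31 (1.07 to 1.59) times the mean in the ATRA, TPA and untreated matrices. The contact across this gap was near or above the distance level in each matrix, while contact across both low segments was below it in each.

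Chromosome 9 was joined to chromosome 14, and 3 of the 5 joins peaked at an edge of the 9p or the 9q low segment. A bin pair counted as joined when the sum of the 3 matrices held 20 or more contacts and this was at least 10 times what the coverage of both bins predicts. This held for 85 bin pairs of chromosome 9, of which 82 were with chromosome 14, or 0.135% of the pairs of these 2 chromosomes, against 0.00416% of all bin pairs between chromosomes. Merging neighbours gave 23 clusters, 20 of them with chromosome 14. The 5 clusters of 5 or more bin pairs were all with chromosome 14. Of the others, 2 held 2 bin pairs and 16 held 1, and the 3 with other chromosomes were single pairs of the bins at 139.5, 140.0 and 140.5 Mb with chromosomes 22, 16 and 19. No joined bin on chromosome 9 lay below 32.0 Mb, near the gradual edge at 11.5 Mb, and the 5 clusters held no bin at 105.0 to 107.0 Mb. A bin of low coverage needs a higher ratio to reach 20 contacts, so a missing call there does not show that contacts were not raised. The 2 bins above the cluster peak at 104.0 Mb lie in the 9q low segment. With 3 bins of chromosome 14 around 64.0 Mb they had 15, 30 and 20 contacts in ATRA, TPA and untreated cells. This was 11.5, 25.3 and 17.8 times the expectation.

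In order along chromosome 9, the first join linked 32.0 to 33.5 Mb with 81.5 to 84.0 Mb of chromosome 14, with 82 contacts in ATRA cells, 76 in TPA cells and 94 in untreated cells, or 25.0, 22.4 and 27.9 times the expectation. Its peak was the bin at 32.5 Mb, which is the first bin after the 9p low segment. The second linked 33.0 to 34.5 Mb with 89.5 to 92.0 Mb, with 46, 63 and 75 contacts, or 11.9, 13.3 and 15.5 times. The third linked 36.5 to 38.5 Mb, the last bins before the pericentromere, with 62.5 to 64.5 Mb, with 99, 122 and 134 contacts, or 12.5, 15.1 and 17.4 times. Its peak was the bin at 38.0 Mb, next to the pericentromere. The next linked 102.5 to 105.0 Mb with 63.0 to 65.0 Mb, with 105, 151 and 169 contacts, or 16.2, 25.9 and 29.8 times. Its peak was the bin at 104.0 Mb, the last before the 9q low segment. The fifth, with the most contacts, linked 107.0 to 110.5 Mb with 59.0 to 62.5 Mb, with 299, 356 and 364 contacts, or 20.7, 25.5 and 25.5 times. Its peak was the bin at 107.0 Mb, the first after the 9q low segment, which with 61.5 Mb of chromosome 14 had 39, 34 and 43 contacts, or 63.1, 57.2 and 70.5 times the expectation.

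The joins were present in every matrix, and the ratio of all 5 was lower in ATRA cells than in untreated cells. Their bin pairs were picked in the sum of these same 3 matrices, so high ratios in each matrix are partly fixed in advance. The join at 102.5 to 105.0 Mb differed most, with 16.2 (13.2 to 19.6) in ATRA cells against 29.8 (25.5 to 34.7) in untreated cells. The fifth join had 20.7 (18.4 to 23.2) in ATRA cells against 25.5 (22.9 to 28.3) in untreated cells, with intervals that just overlap, and the intervals of the other 3 joins overlapped too. In TPA cells the ratio at 102.5 to 105.0 Mb was 25.9 (22 to 30.4), whose interval overlaps the untreated one. Contacts within chromosome 9 were also a smaller share of its contacts in ATRA cells (16.7%) than in untreated cells (21.7%), and the part of this in the lower join ratios was not tested.

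Contacts on each side of a peak show which way the joined piece extends. The windows nearest a peak can hold bin pairs of its cluster, so high ratios there are partly fixed by the rule. Around the fifth join, 3 bins of chromosome 14 at the peak met chromosome 9 on its higher side at 35.8, 31.7 and 35.4 times the expectation within 0.5 to 1.0 Mb in ATRA, TPA and untreated cells, and still at 4.32, 5.07 and 5.40 times at 5.5 to 10.0 Mb. On the lower side, toward the 9q low segment, there were 0, 2 and 3 contacts within 0.5 to 1.0 Mb, and 0.577, 1.03 and 1.26 times the expectation at 5.5 to 10.0 Mb. Along chromosome 14 the same join extended to the lower side, with 3.68, 3.85 and 2.99 times at 5.5 to 10.0 Mb, against 0.463, 1.19 and 0.690 times on the higher side. Within 0.5 to 1.0 Mb that higher side was also raised, at 15.7, 23.5 and 18.4 times. Beyond its nearest bins the fifth join thus had 1 side on each chromosome, the telomeric side of 9q and the centromeric side of chromosome 14.

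The first join also had 1 side on each chromosome beyond its nearest bins. At 3.0 to 5.0 Mb from its peak it gave 3.44, 7.22 and 4.49 times the expectation on the higher side of chromosome 9, and on the lower side, inside the 9p low segment, 2, 0 and 2 contacts. Along chromosome 14 the ratio at 5.5 to 10.0 Mb was 6.94, 8.94 and 10.0 on the higher side, against 0.943, 1.08 and 0.885 on the lower side. The second join, 500 kb further along chromosome 9, had raised contacts on both sides along chromosome 14, at 11.1, 11.4 and 12.9 times at 5.5 to 10.0 Mb on the lower side and 4.27, 4.12 and 3.80 times on the higher side. It lies within the block of contacts that begins at the first.

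The joins at 36.5 to 38.5 Mb and at 102.5 to 105.0 Mb met the same short piece of chromosome 14. Moving along chromosome 14, that on 9p gave 9.09, 13.9 and 20.4 times the expectation at 0.5 to 1.0 Mb on the lower side and 11, 14.9 and 15.0 times on the higher side. At 3.0 to 5.0 Mb it gave 1.05, 0.977 and 0.869 times on the lower side and 2 contacts in each matrix on the higher side. The join on 9q gave 1.29, 0.443 and 0.986 times on the lower side and 2.08, 0.933 and 0.874 times on the higher side at that distance, from 10, 3 and 7 and from 7, 3 and 3 contacts. Along chromosome 9, the join on 9p could be followed on its lower side, since on the higher side only 1 bin before the pericentromere was usable, with 12.9, 19.3 and 27.6 times the expectation. The contacts of the join on 9q stretched to the lower side, where they were 2.62, 3.76 and 2.86 times at 5.5 to 10.0 Mb before the peak, against 0.619, 0.697 and 0.732 times after it. The piece of chromosome 14 at about 62.5 to 65.0 Mb was in raised contact beyond the 2 joins too, on 9q from 70 to 100 Mb. The windows of 5 Mb from 70 to 100 Mb on 9q met chromosome 14 at 60 to 65 Mb at 1.45 to 2.36 times the expectation in ATRA cells, 2.11 to 2.75 times in TPA cells and 1.38 to 2.34 times in untreated cells. The first bin of the 9q low segment is part of the join on 9q. The whole segment met 60 to 70 Mb at 1.90 (1.28 to 2.72), 3.31 (2.46 to 4.36) and 2.87 (2.07 to 3.88) times. That window is wider than the raised piece. In the summed matrix the single bins from 62.5 to 64.5 Mb gave 3.36 to 13.1 times, against 1.69 times at 62 Mb and 0.531 times at 65 Mb. Within the segment, contacts with 3 bins of chromosome 14 around the peak lay next to the join. The summed matrix held 65 of them at 0.5 to 1.0 Mb after the peak, or 18.0 times the expectation. At 1.5 to 2.5 Mb after it, still in the segment, there were 3, or 0.580 (0.120 to 1.70) times.

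**Figure D2:**
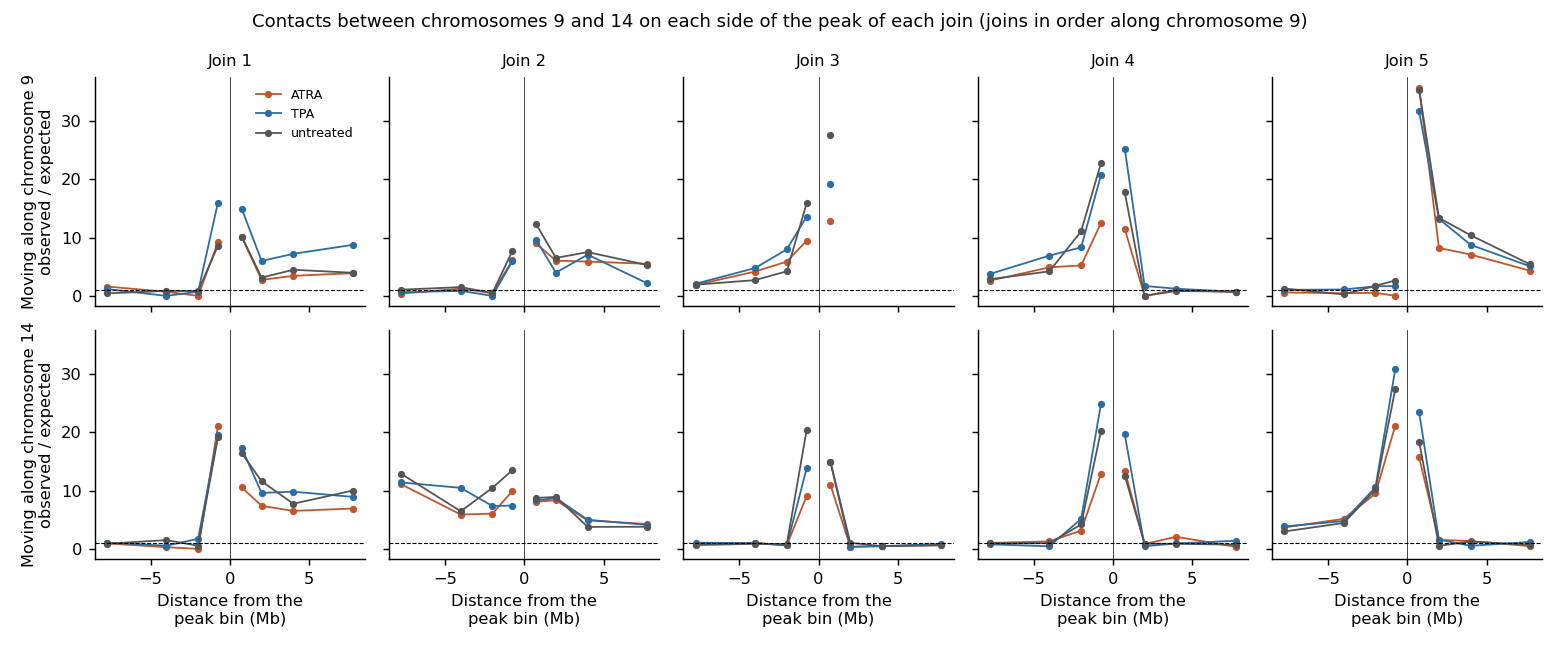
Observed over expected contacts between chromosomes 9 and 14 (linear axis) against the distance from the peak bin of each of the 5 joins, moving along chromosome 9 (upper row) and along chromosome 14 (lower row), in ATRA, TPA and untreated cells; negative distances are the lower side, points are windows, and the dashed line is the expectation. Join 5 falls to the expectation on 1 side of each chromosome, and joins 3 and 4 return to it on both sides along chromosome 14.

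Beyond the breakpoints, whole segments of the 2 chromosomes were in raised contact. Proximal 9p had 2.42, 2.66 and 2.45 times the expected contacts with all of chromosome 14 in ATRA, TPA and untreated cells, proximal 9q at 71 to 104.5 Mb had 1.62, 1.76 and 1.72, and distal 9q from 107.0 Mb had 1.55, 1.60 and 1.58. The low segment on 9p had 0.919, 0.958 and 0.936 times, and distal 9p had 1.10, 1.15 and 1.13 times. Distal 9p was raised by less than proximal 9p, and only with parts of chromosome 14. It had 1.38, 1.42 and 1.41 times with 80 to 90 Mb, and 1.26, 1.56 and 1.66 times with 90 to 100 Mb. With 40 to 50 Mb it had 0.884, 0.919 and 0.880 times. In windows of 5 Mb, those at 35 to 40 Mb on 9p met 80 to 107.5 Mb of chromosome 14 at 4.26, 4.83 and 4.29 times the expectation. The windows from 70 to 105 Mb on 9q met the same piece at 2.17 to 3.33 times in ATRA cells, 2.59 to 3.28 times in TPA cells and 2.25 to 3.42 times in untreated cells.

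At the 9q low segment the partner on chromosome 14 changed. The window at 100 to 105 Mb met 80 to 107.5 Mb of chromosome 14 at 2.97, 3.28 and 3.23 times and 20 to 60 Mb at 0.823, 0.838 and 0.917 times. The window at 105 to 110 Mb met 80 to 107.5 Mb at 0.927, 0.828 and 0.821 times and 20 to 60 Mb at 2.61, 2.93 and 2.66 times. The window from 20 to 60 Mb is wider than the raised piece. Distal 9q met 20 to 30 Mb at 0.961, 1.02 and 1.02 times and 30 to 40 Mb at 2.01, 2.10 and 2.14 times. In the summed matrix its ratio was 0.947 at 27.5 Mb and 1.64 at 28 Mb. The contact of distal 9q with 20 to 60 Mb of chromosome 14 stayed raised for several windows and was lower at the chromosome's end, with 1.33, 1.14 and 1.34 times at 135 to 140 Mb. That window met the end of chromosome 14 more often, at 2.16, 2.13 and 1.89 times for 100 to 105 Mb and 3.00, 2.35 and 2.27 times from 105 Mb on. Between them, 65 to 80 Mb of chromosome 14 was raised with no 5 Mb window of chromosome 9, with 1.09, 1.05 and 1.13 times as the highest value in the ATRA, TPA and untreated matrices. Over whole chromosomes, chromosome 14 was the partner of chromosome 9 with the highest ratio, at 1.57, 1.67 and 1.63 times the expectation, and the next was chromosome 22 in ATRA and TPA cells at 1.09 and 1.10, and chromosome 20 in untreated cells at 1.10.

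**Figure D3:**
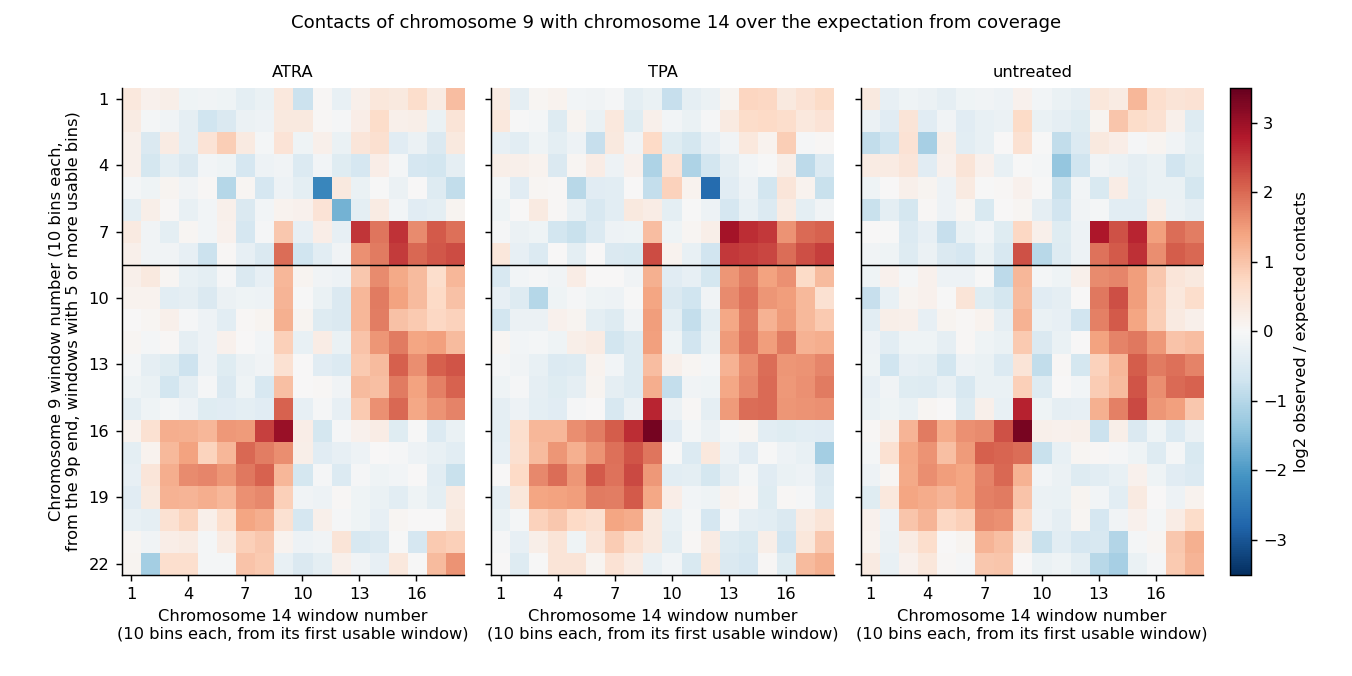
Contacts between 10-bin windows of chromosome 9 (rows, from the 9p end; the black line is the centromere) and of chromosome 14 (columns) over the expectation from coverage, as log2, in ATRA (left), TPA and untreated cells (right). In all 3 matrices, proximal 9p and proximal 9q meet the last windows of chromosome 14 and a single window further back. Distal 9q meets most of the windows before that, but not the first. The last windows of 9q also meet the last windows of chromosome 14.

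Contacts within chromosome 9 also changed at the edges of the low segments. Proximal 9q and distal 9q shared 0.633 (0.619 to 0.647), 0.605 (0.593 to 0.618) and 0.639 (0.626 to 0.652) times the contacts expected from their distance in ATRA, TPA and untreated cells. Distal 9p and proximal 9q shared 1.37, 1.45 and 1.70 times, and distal 9p and distal 9q 0.786, 0.821 and 0.761 times. Proximal 9p met the part of 9q next to the centromere at 1.10, 1.07 and 1.16 times (71 to 76 Mb) and 0.847, 1.02 and 0.859 times (81 to 86 Mb). It met 9q further out more often, with 2.09, 1.56 and 2.01 times at 86 to 91 Mb, 2.73, 2.23 and 2.74 times at 96 to 101 Mb and 2.25, 2.26 and 2.50 times at 101 to 106 Mb. At 106 to 111 Mb, past the 9q low segment, this was 0.835, 0.594 and 0.75 times. Further out it was above the distance level again, with 1.48 (1.29 to 1.70), 1.21 (1.06 to 1.38) and 1.55 (1.37 to 1.75) times at 126 to 131 Mb and 1.38, 1.25 and 1.22 times at 136 to 141 Mb. At 76 to 81 Mb it was 1.33, 1.13 and 1.22 times.

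Over all bins, 9p and 9q shared 1.11 (1.09 to 1.13), 1.14 (1.12 to 1.16) and 1.19 (1.17 to 1.21) times the contacts expected from distance. Among 17 chromosomes with enough usable bins on both arms, chromosome 9 ranked 4, 3 and 4 from the highest, and the others had medians of 0.966, 0.978 and 0.992. The ratio of ATRA over untreated cells was 0.930 (0.906 to 0.954), and that of TPA over untreated cells was 0.960 (0.936 to 0.983). As a plain share of the contacts of chromosome 9, the contacts between the arms were 1.69%, 1.92% and 1.88%, so on this scale TPA cells were not lower.

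**Figure D4:**
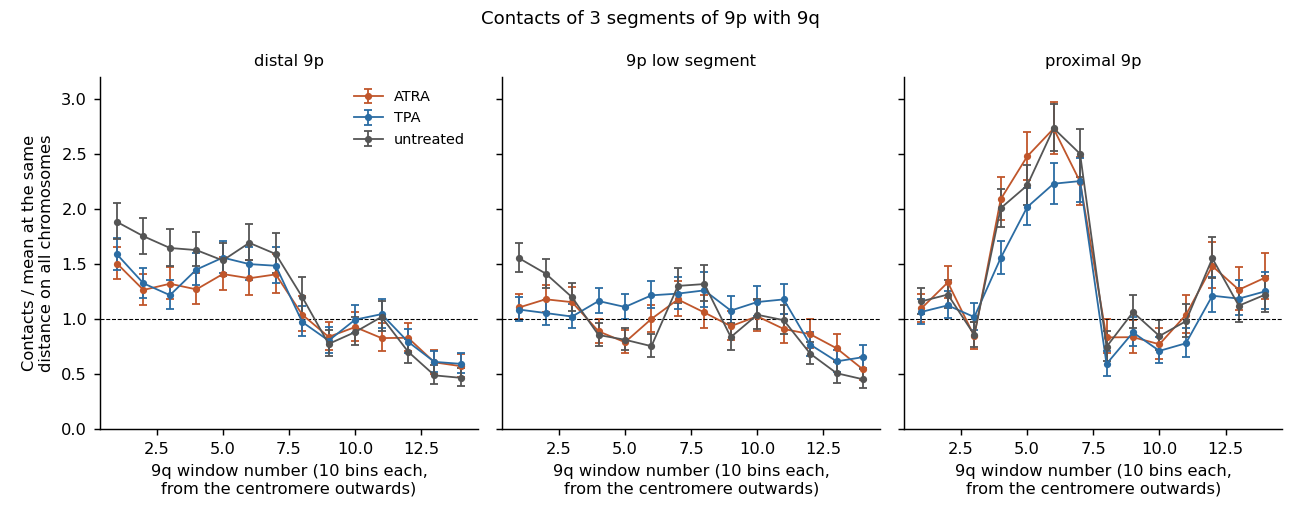
Contacts of distal 9p, the 9p low segment and proximal 9p with 10-bin windows of 9q, over the mean at the same distance on all chromosomes (linear axis, bars are 95% counting intervals), in ATRA, TPA and untreated cells. Proximal 9p is highest in windows 4 to 7, up to 2.73, 2.23 and 2.74 times in window 6, falls below 1 in window 8, and is above 1 by less in windows 1, 2 and 12 to 14.

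Contacts within the chromosome were 16.7% of its contacts in ATRA cells, 19.8% in TPA cells and 21.7% in untreated cells. Against untreated cells this was -4.99 percentage points (-5.12 to -4.86) in ATRA cells and -1.91 (-2.05 to -1.77) in TPA cells. The other chromosomes lay between -7.95 and -3.91 points in ATRA cells and between -6.16 and -1.05 points in TPA cells, so chromosome 9 was within their range. Of the contacts between different bins of chromosome 9, 35.5% were closer than 2 Mb in ATRA cells, 35.0% in TPA cells and 43.5% in untreated cells. The share at 10 to 50 Mb was 23.6%, 23.1% and 19.8%.

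The share of contacts with other chromosomes also shifted between segments. Distal 9q changed by -0.15 (log2, -0.16 to -0.14) in ATRA cells and by -0.05 (-0.06 to -0.04) in TPA cells relative to untreated cells, and proximal 9p by -0.13 and -0.03. The 9p low segment changed by 0.12 (0.11 to 0.14) and 0.05 (0.04 to 0.07), and distal 9p by 0.07 and 0.04. The bins that changed most in ATRA cells were at the end of 9q. The bin at 139.5 Mb had 1758 contacts in ATRA cells against 2665 in untreated cells (-0.62, -0.71 to -0.54), and the bin at 140.0 Mb had 1836 against 2692 (-0.58). On 9p the bin at 21.5 Mb had 1327 contacts in ATRA cells against 1024 in untreated cells (0.35, 0.23 to 0.47), the largest rise on the chromosome. These shifts were small beside the low segments themselves, whose edges showed in all 3 matrices.

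Compartments divide the genome into A, which is gene-rich and open, and B, which is compact. They were scored in 2 ways, by the first eigenvector of contacts within the chromosome and by that of contacts between chromosomes, both in SD units with the positive side that of the gene-rich chromosome 19. The 9p low segment was on the B side, with medians of -0.906, -0.461 and -1.02 within the chromosome and -0.534, -0.553 and -0.581 between chromosomes in ATRA, TPA and untreated cells. Its B side was not uniform, since 5, 7 and 3 of its 42 bins were positive within the chromosome. The 9q low segment was B in all 5 bins by both scores. Proximal 9p was mostly A, with 10, 10 and 11 of its 12 bins positive within the chromosome, and medians of 1.19, 0.890 and 1.36 within the chromosome and 0.802, 0.621 and 0.713 between chromosomes. Distal 9q held the highest scores between chromosomes, up to 5.82, 4.59 and 5.80, near its telomere.

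**Figure D5:**
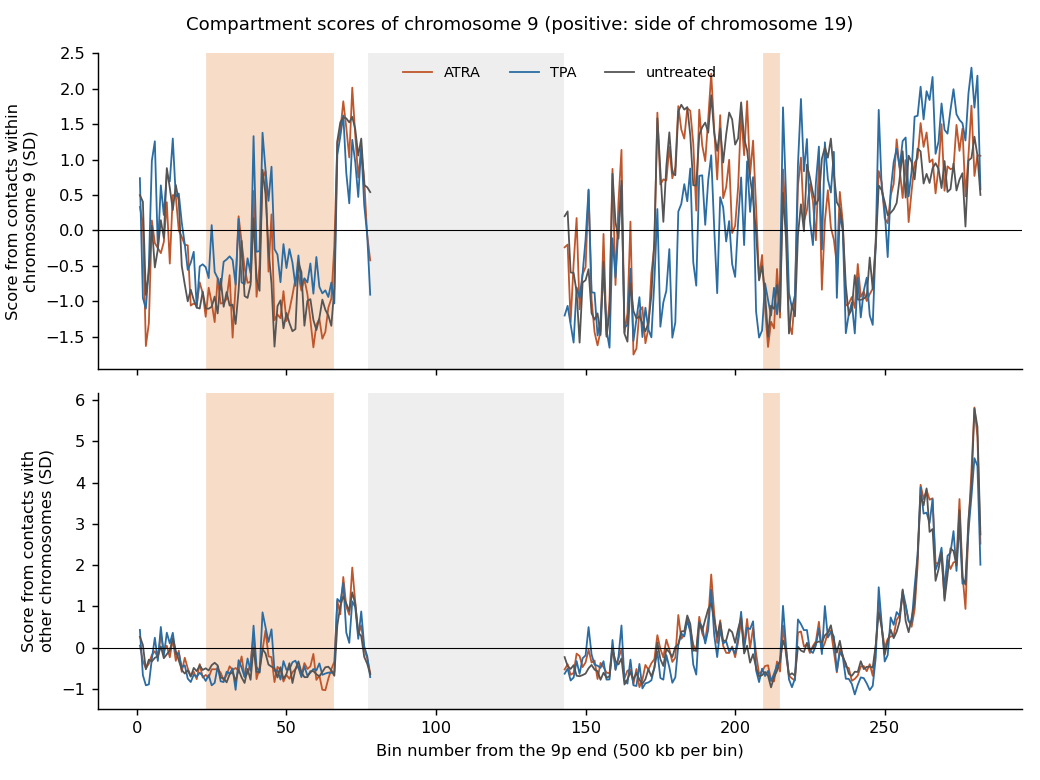
Compartment scores of the 219 usable chromosome 9 bins by bin number from the 9p end, from contacts within the chromosome (top) and with other chromosomes (bottom), in ATRA, TPA and untreated cells; orange marks the low segments and grey the pericentromere. The TPA line lies mostly below the other lines on proximal 9q in the upper plot, and the 3 lines run close together in the lower plot.

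The 2 scores gave different accounts of TPA. Between chromosomes, the score correlated with that of untreated cells at 0.973 in ATRA cells and 0.946 in TPA cells over the 219 bins, which share their matrices and are given as a description. Within the chromosome this was 0.887 and 0.658. Within each matrix, the 2 scores correlated at 0.668, 0.861 and 0.607, and 186, 204 and 186 bins lay on the same side by both. A large shift was on proximal 9q, where the median score within the chromosome was 0.401 in ATRA cells, -0.657 in TPA cells and 0.447 in untreated cells, and 39, 23 and 38 of its 67 bins were on the A side. By contacts between chromosomes the medians there were -0.146, -0.292 and -0.281, with 24, 22 and 23 bins on the A side. The median within the chromosome was also higher in TPA than in untreated cells on the 9p low segment and on distal 9q, where it was 0.552 in ATRA cells, 0.909 in TPA cells and 0.537 in untreated cells. Proximal 9q, from 86 Mb on, is also where proximal 9p, an A segment, had raised contacts. At 86 to 91 Mb these were less raised in TPA cells (1.56 times, against 2.01 in untreated cells). The part of those contacts in the score was not tested.

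A switch was a move from beyond 0.5 SD on 1 side to beyond 0.5 SD on the other. Between chromosomes, 0 of 219 bins switched in either direction in either treatment, where over all bins 0.16% left A for B in ATRA cells and 0% left B for A, and the same shares in TPA cells were 0.124% and 0.142%. Within the chromosome, ATRA cells had 1 bin from A to B, at 114.0 Mb (0.457%, against 0.533% of all bins), and 1 from B to A, at 75.0 Mb (against 0.124% of all bins). TPA cells had 8 bins from A to B (3.65%, against 2.24% of all bins) and 3 from B to A (1.37%, against 0.977%). These shares were near the background or rested on 1 to 8 bins. With an eigenvector for each arm, ATRA cells had 3 leaving A and 0 leaving B, none of them among the 2 named here, and TPA cells had 3 and 1, of which 2 were among the 11. From raw contacts TPA cells had 6 and 0, of which 1 was among the 11, and beyond 0.8 SD they had 4 and 0. All 3 calls from B to A in TPA cells were therefore lost under these last 2 settings.

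The 3 bins that moved from B to A in TPA cells were at 2.5, 22 and 75.0 Mb. The 22 Mb bin, within the 9p low segment, scored 0.226 in ATRA cells, 0.899 in TPA cells and -0.753 in untreated cells within the chromosome, and between chromosomes 0.443 in TPA cells against -0.462 in untreated cells. The share of a bin's contacts with other chromosomes that fall on A bins is given beside the scores. The A bins come from the score between chromosomes in the summed matrix, so this share is not independent of that score. For the 22 Mb bin it was 18.4% (16.2 to 20.8) in ATRA cells, 23.8% (21.2 to 26.5) in TPA cells and 16.9% (14.7 to 19.4) in untreated cells, while the genome stood at 19%, 21.6% and 22.4%. The bin at 75.0 Mb had 24.3% (22.4 to 26.3) in TPA cells against 18.0% (16.2 to 19.9) in untreated cells, and the bin at 2.5 Mb had 22.7% (21.1 to 24.3) against 19.7% (18.2 to 21.2). The intervals were apart for the bins at 22 and 75.0 Mb and just overlapped for the bin at 2.5 Mb.

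Of the 8 bins that moved from A to B in TPA cells, 7 lay on proximal 9q, at 87, 88.0, 89, 89.5, 93.0, 96.5 and 99.5 Mb, and the eighth was the 38.5 Mb bin at the centromeric end of 9p. The bin at 89 Mb moved most, with -1.51 in TPA cells against 0.814 in untreated cells within the chromosome. Its share of contacts on A bins was 15.6% (14.2 to 16.9) in TPA cells against 20.0% (18.6 to 21.5) in untreated cells. At 96.5 Mb this share was 19.2% (17.8 to 20.7) against 24.3% (22.7 to 25.9). At 87 Mb it was 15.9% (14.6 to 17.4) against 19.3% (17.8 to 20.7), and at 89.5 Mb 17.3% (15.9 to 18.8) against 21.2% (19.6 to 22.8). The intervals of these bins were apart. But at 93.0 Mb it was 18.0% (16.6 to 19.4) against 20.5% (19.1 to 21.9), at 88.0 Mb 19.9% (18.3 to 21.6) against 21.3% (19.7 to 23) and at 99.5 Mb 20.8% (19 to 22.7) against 22.5% (20.7 to 24.4), with overlapping intervals. Between chromosomes the 7 bins scored between -0.854 and -0.146 in TPA cells and between -0.281 and 0.260 in untreated cells, so in untreated cells they stood near the border of the compartments.

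The largest movements of each score were at few places. Within the chromosome, the largest falls in ATRA cells were at 114.0, 99.0, 115.5, 99.5 and 5.0 Mb, with -1.85 to -1.07 SD, and the largest rises were at 75.0, 16.5, 73.0, 22 and 136.5 Mb, with 1.11 to 0.927 SD. In TPA cells the largest falls were at 89, 87, 89.5, 99.0 and 96.5 Mb, with -2.33 to -2.01 SD, and the largest rises at 2.5, 22, 110.5, 22.5 and 132.5 Mb, with 1.78 to 1.29 SD. Between chromosomes, ATRA cells fell most at 138.0, 98.5, 31.0, 94.5 and 135.5 Mb, with -0.589 to -0.500 SD, and rose most at 132.0, 132.5, 90.0, 95.5 and 101.5 Mb, with 0.783 to 0.647 SD. TPA cells fell most at 139.5, 140.0, 35.0, 140.5 and 89.5 Mb, with -1.21 to -0.735 SD, and rose most at 75.0, 22, 20.5, 107.5 and 102.0 Mb, with 0.999 to 0.815 SD. The bin at 22 Mb was among the largest rises of both scores in TPA cells, and 20.5 and 22 Mb lie in the 20 to 26 Mb window. At 139.5 Mb the A share was 48.0% (46.1 to 50.0) in TPA cells against 57.6% (55.7 to 59.5) in untreated cells. The genome stood at 21.6% and 22.4%. This share is not independent of the score between chromosomes, by which the bin was picked.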

How the data were processed

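Per the labels' protocols, the libraries were HindIII Hi-C of HL60 with ligation in solution. The submitters' processing notes name Bowtie, HOMER 4.7 and hg19, and the series' design text names HiCUP as well. No source used here states the filter settings. The authors deposited 3 matrices of raw contact counts between 500 kb bins, per the file headers, with the TPA and the untreated libraries each pooled. Diagonal counts were halved, the upper triangle was used, and bins outside the autosomes and chromosome X were left out. Depth was 9632300 contacts in ATRA, 10423501 in TPA and 10628045 in untreated cells.

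Coverage used contacts between chromosomes. Balancing took 60 iterations over 5632 usable bins. Expected contacts came from the coverage of both bins between chromosomes, and from the mean at the same distance within them. Eigenvectors were signed by chromosome 19, and A bins for shares were the 1075 bins above 0.5 SD between chromosomes in the summed matrix. Intervals are exact Poisson or binomial ones, or normal ones on the log scale for ratios of matrices. PCR duplicates are not covered. Each condition is 1 matrix, so no test was made. The functions were tested on simulated data. Python 3.11.15, numpy 2.4.6 and scipy 1.17.1 were used.

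Named regions are every step, low run, joined cluster and switching bin of chromosome 9, every bin of 20 to 26 Mb, and the 5 largest rises and falls of each score. The regions, lists and rules were chosen with earlier results of these data known. The 0.75 limit that sets the low segments was chosen after seeing the data. Planned gene lists were not placed on bins, since no hg19 gene coordinates were used here.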

Additional observations from a re-analysis of the deposited data

How the results depend on the processing

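No paired analysis was possible because each matrix stands for a whole condition, with 2 libraries pooled in TPA, 2 in untreated and 1 in ATRA. For the same reason no library could be left out. The 4 coverage steps stayed within 1.5 times in number under every alternative tried, and 5 times the expectation gave 6 joined clusters in place of 5. Joined clusters of 5 or more bin pairs numbered 2 at 20 times the expectation and 1 at 40 or more contacts. Low runs numbered 2 under 0.4 times the median, 6 under 0.5 times and 5 by all contacts of the bin. Contacts across the 9p low segment, 0.544 in the summed matrix, were 0.420 from raw contacts and 0.715 against the mean on chromosome 9 alone, below 1 in each. Contacts between the arms as a share of chromosome 9 gave 0.896 for ATRA over untreated cells and, with the direction reversed, 1.02 for TPA over untreated cells. Without contacts in a single bin, the share within the chromosome differed by -3.79 points in ATRA and -1.29 points in TPA cells. The ratio with chromosome 14 was 1.53, 1.62 and 1.58 in ATRA, TPA and untreated cells without joined bin pairs, and 1.18, 1.27 and 1.29 with an expectation from lengths. Switches within the chromosome, 2 in ATRA cells, were 1 without bins under 0.4 times the median, 5 beyond 0.3 SD and 1 beyond 0.8 SD. The 11 in TPA cells were 4 with an eigenvector for each arm, 6 from raw contacts and 4 beyond 0.8 SD. Between chromosomes, TPA cells had 3 switches beyond 0.3 SD. The causes of these differences were not tested. Depth limits single bin pairs and short windows, such as the 17 contacts across the 9p low segment in ATRA cells.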
